A study of Sus scrofa with 2 samples.

Results

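The genes described here encode proteins of the cytosolic ribosome, and they were read on 1 array of minipig ovary and 1 array of conventional pig ovary, called the minipig array and the pig array. Members were all genes with a symbol of RPL or RPS and a digit, together with RPSA and the stalk genes RPLP0, RPLP1 and RPLP2, and without the RPS6K kinases. Probes were named through their RefSeq transcripts, and the rule itself uses no measured value. The rule takes 84 pig genes of the RefSeq table, and 30 of them had a named probe, out of 2459 genes named on the arrays. These 30 genes were read by 159 probes, and 17 belong to the large (60S) subunit and 13 to the small (40S) subunit. The other 54 genes, among them RPL3, RPL4, RPS6 and RPS19, had no probe named in this way and were not analysed here. RPL26L1, RPL7L1 and RPL36AL are relatives of RPL26, RPL7 and RPL36A that the symbol rule lets in, and they were counted with the large subunit by name.

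The study asked how ovarian gene expression differs between minipigs and conventional pigs while corpora lutea regress. The labels give the minipig breed and the pig breed, female ovary, and day 15 of the cycle for both arrays, and the methods name Yorkshire sows and Midget minipigs, all 10 months old, with luteal tissue cut away before RNA extraction. No animal was described as treated or genetically altered. Ovaries of 5 animals per breed are named in the methods, which do not say whether an array carried RNA of 1 animal or of a pool, so animal, breed and array cannot be told apart and no difference has a replicate check. In whole tissue, fewer cells of a type and less RNA per cell cannot be told apart either.

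Ribosomal proteins surround the ribosomal RNA of both subunits. The small subunit reads the messenger RNA, and the large subunit joins amino acids and passes the growing chain out through a tunnel. Their transcripts are among the most abundant of growing cells and carry a pyrimidine-rich start through which mTOR signaling sets their translation. In the ovary, growing follicles depend on protein synthesis for the growth of the oocyte and the division of granulosa cells.

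All differences below are conventional pig minus minipig, on the log2 scale. A table of log2 values that the authors also deposited gives the arrays to the opposite breeds. Its pig column equals the minipig scanner array less 1 constant, within 0.00718, and its minipig column equals the pig scanner array within 0.0246. The scanner labels were kept here, and every direction reverses under the labels of the table. The table lists none of the 159 probes. A gene's difference is the median of its probe differences, which need not equal the difference of its levels.

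Each array held 43803 spots other than controls, and processed intensities had a median of 128 for minipig and 119 for pig. Levels below are log2 intensities above the array's 75th percentile, which stood at an intensity of 494 on the minipig array and 513 on the pig array. Of 17 ovary markers with a value, 12 were lower on the pig array. They ranged from -3.76 for INSL3, a hormone of theca cells, to 3.11 for the steroidogenic gene HSD3B1, and 8 were past 2-fold lower and 3 past 2-fold higher. Of 7 leukocyte markers, 1 was past 2-fold, the monocyte gene CD14 at 1.04, and the others lay between -0.25 and 0.28. The part of cell composition in the values of the ribosomal protein genes was not tested.

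All 159 probes of the ribosomal protein genes were well above background on both arrays and no spot was saturated. Their levels ran from 1.40 to 8.80 on the minipig array and from 1.55 to 8.56 on the pig array. Over the arrays, 36659 probes were well above background on each, and 1014 of them or 2.77% had a mean level of at least 5. Of the 159 ribosomal protein probes, 145 did, and they made up 14.3% of those 1014. Most ribosomal protein genes therefore sat at the bright end of both arrays. A level depends on the probe as well as on the transcript, so the order of genes below is an order of array signals and not of transcript numbers.

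The 4 genes with the brightest signals were all of the small subunit. RPS3, which lines the path of the messenger RNA into the ribosome, had a level of 8.45 on the minipig array and 8.01 on the pig array. RPS20, a protein of the head of the subunit, had levels of 8.19 and 8.23. RPS28, which sits by the path where the messenger RNA leaves, had levels of 8.18 on each array. RPS12, of the beak of the head, followed with a mean over the arrays of 7.84. The 5 dimmest were RPL26L1, with a mean level of 1.80, RPL7L1 at 3.18, RPS16 at 4.90, RPS15 at 5.43 and RPL14 at 5.43. The pair with the lowest levels were thus relatives let in by their symbols, whereas the third, RPL36AL, had levels of 6.25 and 6.19.

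**Figure D1:**
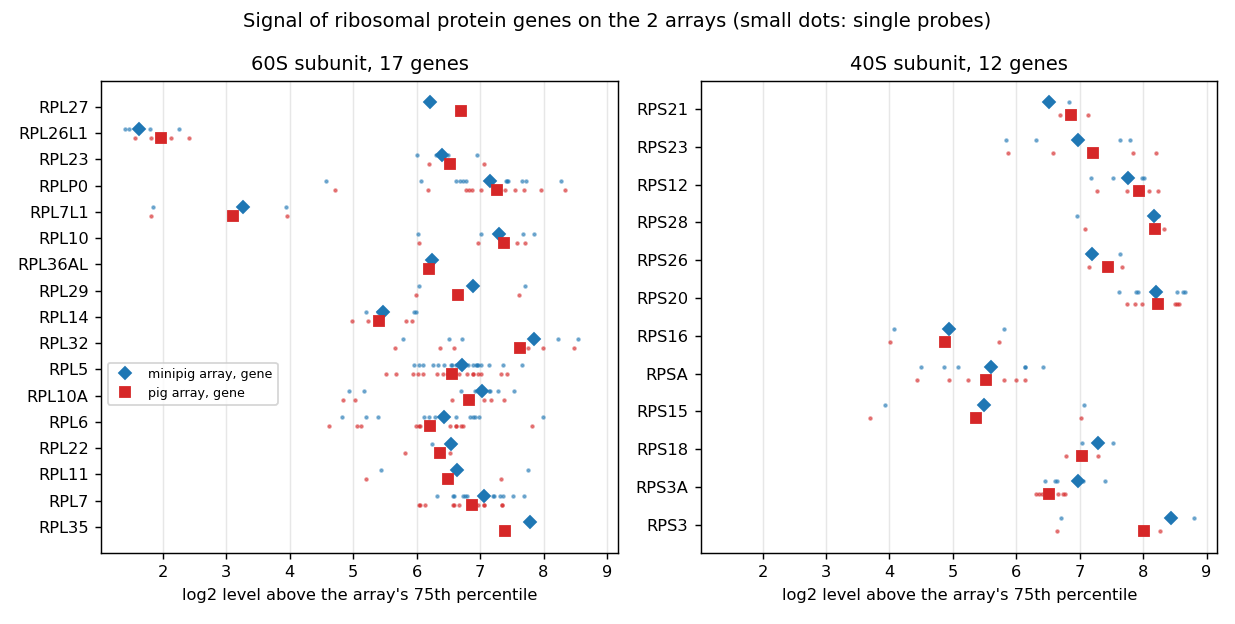
Log2 level above each array's 75th percentile (horizontal axis) of 17 genes of the 60S subunit and 12 of the 40S subunit, on the minipig array (blue diamonds) and the pig array (red squares), with each probe as a small dot and 1 array per breed. Apart from RPL26L1, RPL7L1 and RPS16, every gene shown has a level above 5 on both arrays, and the diamond and square of a gene lie close together.

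The plot of levels shows that signals differed between genes far more than between the arrays for a gene. Across the 159 probes, Pearson's r between the levels of the 2 arrays was 0.987, as a description over probes that share arrays and, within a gene, a transcript. Probes of 1 gene also spanned wide levels, as for RPLP0, whose 13 probes ran from 4.58 to 8.27 on the minipig array and from 4.72 to 8.34 on the pig array.

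The ribosomal protein genes differed little between the arrays. Their median difference was -0.10, the SD over the 30 genes was 0.21, and the range ran from -0.44 to 0.49. Of the 30 genes, 9 were higher on the pig array and 21 on the minipig array, while 52.5% of all genes were higher on the pig array. That count was 19 after median centring and 21 after spike-in centring, where the shares of all genes were 62.7% and 64.7%, and 4 and 5 under quantile and loess normalization, where they were 58.0% and 57.8%. Over all 2363 named genes with a difference, the median was 0.04 and the SD 0.93. Over all 38883 probes with a difference, named or not, the median was -0.12, and 42.0% were higher on the pig array. The 159 ribosomal protein probes had a median close to this, -0.13, with 31.4% higher. The members' median was below that of the named genes under each of the 12 settings of the processing, by 0.13 as reported. Its sign was not stable, since it turned to 0.058 when the arrays were centred on their medians and to 0.084 when they were centred on spike-in control probes.

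None of the 30 genes reached 1.5-fold in either direction. Among all genes, 23.7% passed this fold towards the pig array and 16.2% towards the minipig array. None reached 2-fold either, where the shares of all genes were 11.7% and 7.96%. Past 1.3-fold, 1 ribosomal protein gene was higher on the pig array, beside 31.4% of all genes, and 2 were higher on the minipig array, beside 24.0%. This count depended on the processing. Under quantile normalization 14 of the 30 genes passed 1.3-fold, all towards the minipig array, beside 22.4% of all genes, and under loess normalization 6 did, again all on that side, beside 21.9%. Of single probes, 2 of 159 passed 1.5-fold, both of RPS3A and both higher on the minipig array, beside 37.0% of all probes in either direction.

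The other bright genes that were named were, as a group, not this close between the arrays. Among the other named genes, 55 had a mean level of at least 5, a minimum chosen after the members' levels were seen. Their median difference was 0.33 with an SD of 1.18, and 28 of them, or 50.9%, were at least 1.5-fold apart in either direction. Past 1.3-fold there were 35 of them, or 63.6%, beside 3 of the 30 ribosomal protein genes. Under quantile normalization, which brought the ribosomal protein genes to 14 of 30, 40 of the 55 passed 1.3-fold. With the minimum at 4 or at 6, both also chosen after the values were seen, the share past 1.5-fold was 58.7% and 43.5%. Of the 55 genes, 22 lay within 0.49 of zero, the largest size of a difference among the ribosomal protein genes. These are descriptions of 2 arrays, and no test of the gap between the gene groups was possible.

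**Figure D2:**
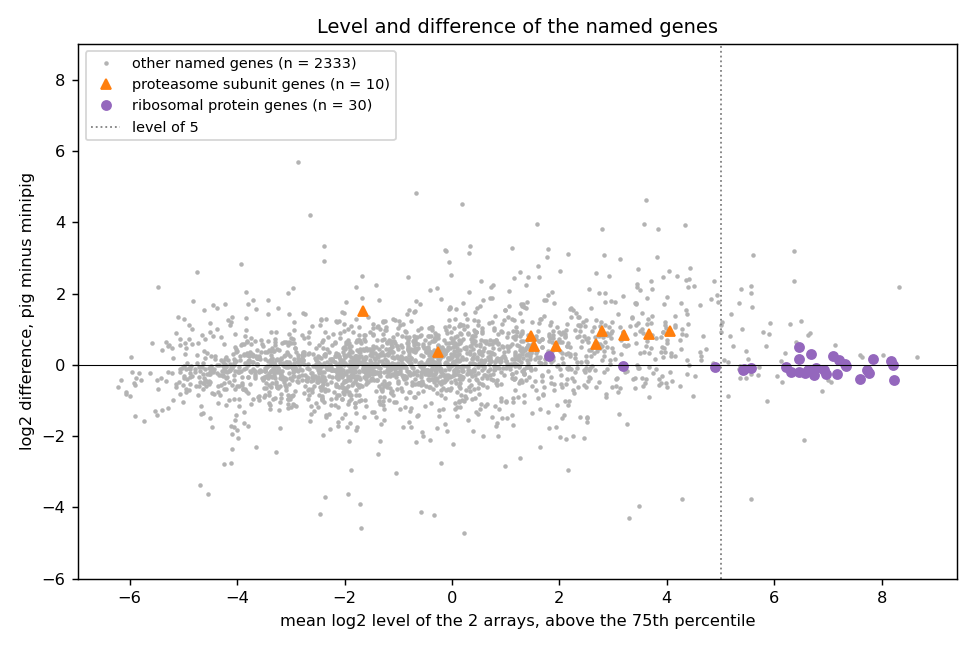
Log2 difference, conventional pig minus minipig (vertical axis), against the mean log2 level of the 2 arrays above the 75th percentile (horizontal axis), with 1 point per gene. The 30 ribosomal protein genes (purple) lie between -0.44 and 0.49, while other genes to the right of the dotted line at a level of 5 spread from -3.76 to 3.20.

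The plot of difference against level places most ribosomal protein genes in a flat band at its right side. RPL26L1 and RPL7L1, with mean levels of 1.80 and 3.18, lie to the left of it. Among the members the difference did not follow brightness: across the 159 probes Pearson's r between mean level and difference was -0.09. The brightest pair of genes is a case of this. RPS3 and RPS20 have nearly the same mean level, 8.23 and 8.21, and their differences were -0.44 and -0.01.

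The large subunit had a median difference of -0.13, with 4 genes higher on the pig array and 13 on the minipig array. The small subunit had -0.07, with 5 and 8. The SD over genes was 0.21 in the large and 0.22 in the small subunit. The order of the medians was not stable, since under quantile normalization the small subunit had the lower median, -0.42 against -0.37.

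RPL27, a protein of the large subunit known from inherited anemia of the Diamond-Blackfan type, was the highest gene. Its only probe had a level of 6.21 on the minipig array and 6.70 on the pig array, a difference of 0.49 or 1.40-fold. It passed 1.5-fold after median centring, at 0.64, and after spike-in centring, at 0.67. With 1 probe and 1 array per breed, neither a second probe nor a second array bears on this value.

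RPS21, a small protein on the body of the 40S subunit, was next. Its levels were 6.51 and 6.85, and its difference of 0.30 was the median of 3 probes between 0.18 and 0.35. RPL26L1 had levels of 1.63 and 1.97, and its 4 probes differed by 0.09 to 0.42. RPS23, which helps the ribosome read codons accurately, had levels of 6.97 and 7.21, with 4 probes from 0.04 to 0.40 and a median of 0.24. RPS12 had levels of 7.76 and 7.93, with 6 probes from 0.08 to 0.24 and a median of 0.17. All probes of these 4 genes were higher on the pig array.

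At the other end stood RPS3, which also takes part in DNA repair. Its 3 probes differed by -0.07, -0.44 and -0.53, and the gene value of -0.44 corresponds to a 1.35-fold higher signal on the minipig array. The probe with the smallest difference was also the dimmest of the 3, at 6.71 and 6.64. RPL35, at the exit of the tunnel for the growing chain, had 1 probe, with levels of 7.78 and 7.39 and a difference of -0.39, or 1.31-fold. As reported, no other gene passed 1.3-fold on this side. The count on this side was 4 with the brightest probe of each gene and 3 with the difference of gene medians.

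RPS3A, of the body of the small subunit, had levels of 6.97 and 6.52. Its 8 probes were all lower on the pig array, from -0.66 to -0.11, with a median of -0.28, and this was the widest span of probes of any member. Its brightest probe alone gave -0.66, past 1.5-fold. RPL7, of the large subunit, had levels of 7.06 and 6.87, and all 14 of its probes were lower on the pig array, from -0.54 to -0.06. RPS18, of the head of the small subunit, had levels of 7.28 and 7.04, and its 2 probes differed by -0.24 each.

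**Figure D3:**
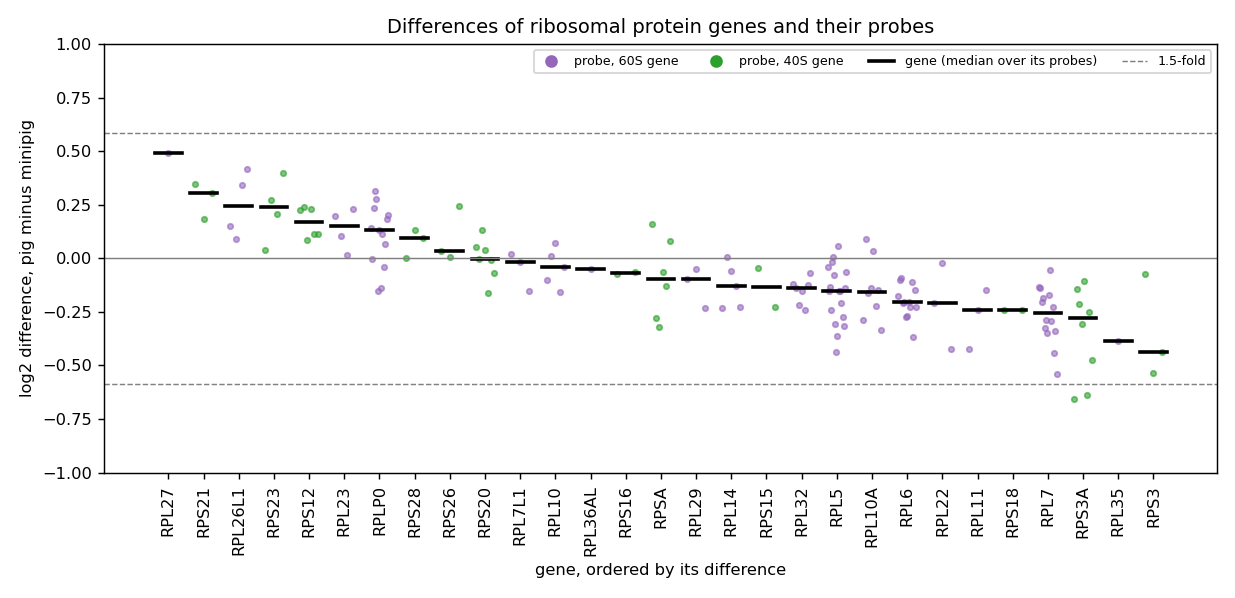
Log2 difference, conventional pig minus minipig (vertical axis), of 155 probes (dots, purple for 60S and green for 40S genes) and of 29 genes (black bars, the median over a gene's probes), ordered by gene. The bars run from 0.49 for RPL27 to -0.44 for RPS3, and only 2 dots, both of RPS3A, lie outside the dashed lines at 1.5-fold.

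The plot of probe differences shows how far probes of the same gene went the same way. Of the 24 genes with 3 or more probes, 7 had every probe higher on the pig array, 9 had every probe higher on the minipig array and 8 were mixed. The share with 1 sign, 66.7%, was close to the 66.3% of 579 other genes with as many probes, and below the 86.2% of 29 such genes with a mean level of at least 5. The differences of a member's probes spanned a median of 0.27, against 0.50 in the other genes and 0.30 in the bright ones. Over the 27 members with 2 or more probes, 60.5% of the variance of probe differences lay between genes, with an SD of 0.16 between genes and 0.13 among probes of a gene. In the other genes that share was 83.3%, with SDs of 0.93 and 0.42. Probes of a gene read the same RNA on the same arrays, so they speak for the hybridisation of that RNA and are not replicates of a breed.

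RPL6, like RPL7, had many probes of 1 sign. Its levels were 6.43 and 6.20, and all 13 probes were lower on the pig array, from -0.37 to -0.09. RPL5, which with RPL11 carries the 5S ribosomal RNA and can bind the p53 regulator MDM2, had levels of 6.71 and 6.55. Of its 18 probes, 16 were lower on the pig array and the range was -0.44 to 0.06. RPL11 had levels of 6.64 and 6.49, and its 3 probes ran from -0.42 to -0.15, with a median of -0.24. RPL11 passed 1.5-fold under quantile normalization, at -0.59, towards the minipig array. RPL10A, of the stalk by which spent transfer RNA leaves, had levels of 7.03 and 6.82, and 6 of 8 probes were lower on the pig array.

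RPLP0 anchors the other stalk, where elongation factors land, and it was higher on the pig array, except under quantile and loess normalization. Its levels were 7.15 and 7.27, and 9 of 13 probes were higher on the pig array, with a median of 0.13. The median of RPLP0, RPL5, RPL11 and RPL10A together was -0.16, with 1 of 4 higher on the pig array. The 8 genes of the head of the small subunit had a median of -0.10, with 2 of 8 higher, RPS12 and RPS28. The 5 genes of its platform and body, RPSA, RPS3A, RPS21, RPS23 and RPS26, had a median of 0.03, with 3 of 5 higher. As reported, genes of a structural part thus lay on both sides of zero in each of these groups. Under quantile normalization this held only for the platform and body. RPLP0 was then at -0.15, RPS12 at -0.015 and RPS28 at -0.13, and every gene of the other groups was lower on the pig array.

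Of the remaining genes of the large subunit, RPL32, RPL22 and RPL29 had all of their 7, 3 and 3 probes lower on the pig array, with differences of -0.14, -0.21 and -0.10. RPL23, a protein of the face between the subunits, had 4 of 4 probes higher and a difference of 0.15. RPL10, which takes part in the last step of large subunit maturation, had a difference of -0.04, with levels of 7.30 and 7.37. RPL14, RPL7L1 and RPL36AL had differences of -0.13, -0.02 and -0.05.

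In the small subunit, RPSA, also known as a laminin receptor, had levels of 5.60 and 5.52 and 6 probes from -0.32 to 0.16. RPS15 and RPS16, which reach towards the decoding center from the head, had differences of -0.14 and -0.07. RPS26, of the platform, had a difference of 0.03, with levels of 7.20 and 7.44. RPS20, RPL10, RPS26 and RPS28 show the limit of a gene value here. When the gene medians of the arrays were subtracted in place of taking the median of the probe differences, a way added after the values were seen, RPS20 and RPL10 turned to 0.04 and 0.07, RPS26 rose to 0.24 and RPS28 went to 0.0028.

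Across the 10 settings that kept all 30 genes, RPL27, RPS21, RPL26L1 and RPS23 were higher on the pig array in each. Another 9 were lower in each, among them RPL6, RPL22, RPL11, RPS18, RPL7, RPS3A, RPL35 and RPS3. The other 17 genes changed sign in at least 1 setting. Against the members' own median, which a common shift of all genes leaves in place, 11 genes lay above and 9 below in all 10 settings. The settings are not separate checks. Those that change only the filter on dim probes could not move a member, since all member probes were well above background. Median and spike-in centring could not change a position against the members' own median.

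**Figure D4:**
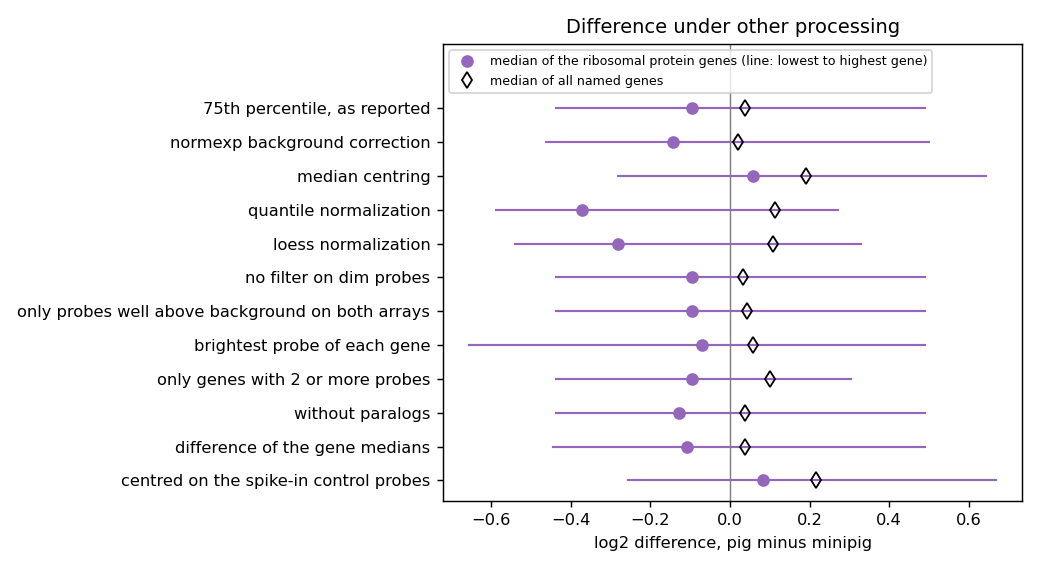
Median log2 difference, conventional pig minus minipig (horizontal axis), of the ribosomal protein genes (purple dots, with a line from the lowest to the highest gene) and of all named genes (open diamonds) under the 12 settings of the processing (rows). The dot lies left of the diamond in every row, and moves from -0.37 under quantile normalization to 0.084 with spike-in centring.

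The plot of settings separates what depended on the scaling from what did not. Centring on medians or on spike-in probes moved all genes together, by 0.15 and 0.18, and left the gap between the members and all named genes at -0.13. Quantile and loess normalization, which scale bright probes apart from dim ones, widened the gap to -0.49 and -0.39. In each of the 12 settings no member passed 2-fold. The 5 spike-in probes with a level above -2, which read control RNA added to the samples, differed by -0.21 to -0.13 with a median of -0.18. The dimmer spike-in probes, which were not used for the centring, differed by -0.82 to 0.14.

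Few other genes of the translation machinery were named on the arrays, so the lists below are described as single genes and do not measure their pathways. EEF1A1, the factor that brings aminoacyl transfer RNA to the ribosome, had levels of 7.22 and 6.79, and its 18 probes were all lower on the pig array, from -0.62 to -0.24 with a median of -0.42. TPT1, which like EEF1A1 carries a pyrimidine-rich start, had levels of 7.51 and 7.78, and 16 of its 17 probes were higher, with a median of 0.21. These well-covered genes thus went opposite ways, within the range of the ribosomal protein genes. EEF1A1 fell below that range under quantile normalization, at -0.64 against a lowest member of -0.59, and under loess normalization, at -0.59 against -0.54. TPT1 was at 0.045 under quantile normalization and at 0.012 with its brightest probe. RACK1, a scaffold on the head of the small subunit, had levels of 6.66 and 6.53 and a difference of -0.18.

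Of 43 genes listed as initiation factors, 8 had a value, with a median of 0.29 and 6 of 8 higher on the pig array. Under quantile normalization the median was 0.07, with 4 of 8 higher. They ran from -0.08 for the helicase EIF4A3 to 0.83 for the poly(A) binding protein PABPC1, the only one past 1.5-fold. Of 52 ribosome assembly factors, 4 had a value, from -0.90 for DKC1, which modifies ribosomal RNA, to 0.45 for NIP7, with a median of 0.25. Among 23 kinases and regulators of translation, 3 had a value, from -0.54 for MYC, a driver of ribosome production, to 0.38 for the stress kinase EIF2AK2. AIMP1, a scaffold of the transfer RNA synthetases, had a difference of -0.45, and MRPS18B, of the mitochondrial ribosome, had 0.61.

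Subunits of the proteasome, which breaks proteins down, served as a second set of genes of a large complex. Of 38 genes, 10 had a value, and all 10 were higher on the pig array, from 0.37 for PSMB8 to 1.51 for PSMB3, with a median of 0.82. Under quantile normalization the median was 0.50, with all 10 still higher and 3 past 1.5-fold. As reported, 6 of 10 were past 1.5-fold, beside 23.7% of all genes and 0 of 30 ribosomal protein genes, and PSMB3 was past 2-fold. PSMA6, a ring subunit and the brightest of them, had levels of 3.58 and 4.55. The sets also differ in signal, since no proteasome gene had a mean level of at least 5.

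**Figure D5:**
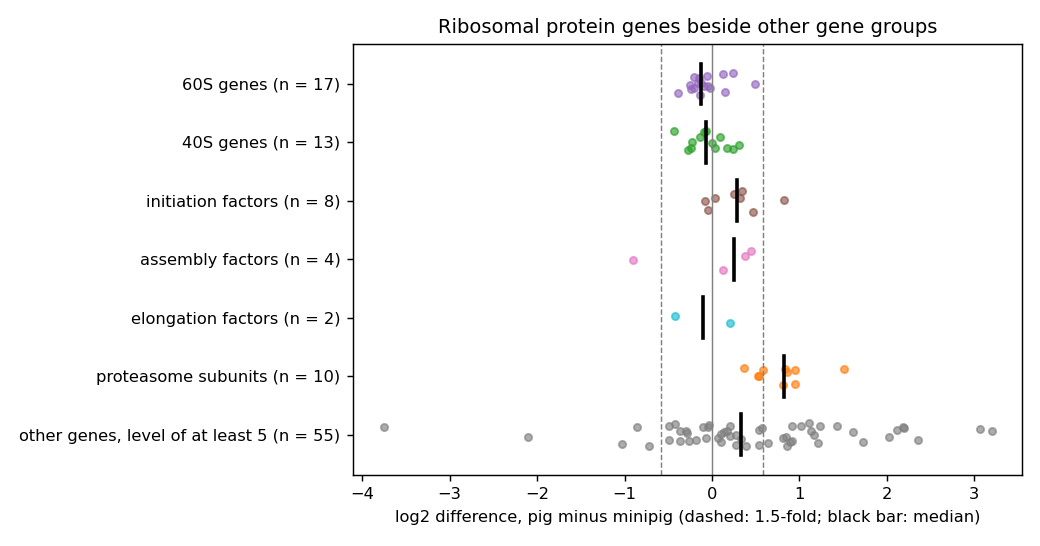
Log2 difference, conventional pig minus minipig (horizontal axis), of each gene (dots) in 7 gene groups (rows), with the median of a group as a black bar and 1.5-fold as dashed lines. Ribosomal protein genes of both subunits stay inside the dashed lines, the 10 proteasome genes lie between 0.37 and 1.51, and the 55 other genes with a level of at least 5 spread over the whole axis.

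The plot of gene groups sets these lists side by side on 1 scale. The groups drawn as initiation, assembly and elongation factors hold 8, 4 and 2 genes, and their bars rest on those few values. The last group holds EEF1A1 and TPT1, and TPT1 is not itself an elongation factor, so its bar does not describe such factors.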

How the data were processed

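The authors hybridised Cy3-labelled RNA to single-colour porcine Agilent arrays and deposited the Feature Extraction 10.7.3.1 output. The authors' processed intensity is background-corrected spot by spot, without normalization between arrays. A second deposited file holds log2 values of 5617 probes and was used only to compare array labels. Control spots and outliers were dropped, spots of the same probe were averaged as log2, and the 75th percentile of each array was subtracted. A probe well above background on 1 array only gave a bound. Accessions, without versions, were matched to the RefSeq table of Sscrofa11.1, which named 5577 of 43597 probes (12.8%). No coordinates or sequences were used. The 30 genes, the 11 lists of other genes and the structural groups were chosen with earlier results of these data known. Genes named singly were the 5 highest and 5 lowest differences, the 5 brightest and 5 dimmest, all paralogs, and the ends of each other list; the remaining members were added after their values were seen. Ovary markers past 2-fold, which that rule also takes, are given as counts. The values of 1 member and of 1 gene of another list are not reported here, and counts and medians include them. With 1 array per breed no test was run, and the number of arrays limits the precision. Alternatives were normexp with an offset of 50 (planned on mean, run on median spot signals), median centring, quantile and loess (span 0.3) normalization, other probe filters and other gene summaries. The steps were tested on simulated data. Software was R 4.3.3 with limma 3.58.1 and Python 3.11.15 with pandas 2.3.3, numpy 2.4.6, statsmodels 0.14.6, scipy 1.17.1 and matplotlib 3.10.9.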

Additional observations from a re-analysis of the deposited data

How the results depend on the processing

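The median difference of the ribosomal protein genes, -0.10 as reported, was 0.058 after median centring, -0.37 after quantile normalization, -0.28 after loess normalization and 0.084 after spike-in centring, and lay between -0.14 and -0.07 under the other 7 alternatives. In the same order, the large subunit had 0.026, -0.37, -0.30 and 0.052, and the small subunit 0.083, -0.42, -0.27 and 0.11. The count of genes past 1.5-fold, 0 as reported, was 1 on the conventional pig side after median centring and after spike-in centring (RPL27 in each), and 1 on the minipig side after quantile normalization (RPL11) and with the brightest probe of each gene (RPS3A). Past 1.3-fold, where 3 genes lay as reported, the count was 14 under quantile normalization, 6 under loess normalization and with the brightest probe, and 1 to 4 otherwise. The cause of these changes was not tested. No gene passed 2-fold under any of the 11 alternatives. Spike-in centring, the difference of gene medians and the level minimums of 4 and 6 were chosen after seeing the data. Gene symbols of the array's design and the deposited log2 table gave no value, since the scanner files used here hold no gene names and the table lists none of these probes. No replicate could be left out, and no paired analysis was possible because each breed has 1 array. Single-probe genes (RPL27, RPL35, RPL36AL) rest on 1 spot per array.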
